A study of Mus musculus with 96 samples.

Results

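Autosomal genes were compared between 24 ventricle libraries of vehicle F mice and 24 of vehicle M mice, which are 48 of the 96 libraries of the series. All animals carried the iCSBmal1 KO genotype, an inducible knockout of the clock gene Bmal1 meant to act in cardiomyocytes, and the vehicle animals had not received tamoxifen, the inducing drug. Both groups were sampled at 12 circadian times (ct), every 4 h from ct 18 to ct 62, with 2 libraries of each sex at each time. Sex comes from the titles of the libraries, all vehicle columns of the count table were used, and the 48 tamoxifen libraries (24 F and 24 M, same genotype and times) serve only as a second comparison. The labels give no age or strain and do not name the driver of the recombinase. Nothing in them ties each library to its own animal, so a p-value here reflects spread among libraries that may be technical.

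Sex differences of the heart reach well beyond the sex chromosomes. Sex hormones act through nuclear receptors that bind DNA in many cell types, and adult female and male hearts are known to differ in repolarising ion currents, in substrate use and in matrix. The circadian clock drives daily rhythms in many of the same genes, so a difference seen at one hour need not be there at another. A gene that differs at every hour is a different kind of result from one that differs on average.

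Totals ran from 12541561 to 20596194 counts in vehicle F libraries and from 8944955 to 15588379 in vehicle M libraries. Xist, transcribed from the silenced X, lay between 222 and 473 CPM (counts scaled to library size) in vehicle F libraries and at or under 0.604 CPM in vehicle M libraries, and the Y-linked Ddx3y had 0 counts in all vehicle F libraries against 133 to 203 CPM in vehicle M libraries. The summed level of 10 cardiomyocyte markers had a median of 47195 CPM in vehicle F libraries and 48767 CPM in vehicle M libraries. Tested singly as described below, 6 of the 10 were lower in F and 3 higher, beside 34.7% and 30.2% of all autosomal genes. Their median difference was -0.29 log2. Of the 9 atrial markers, Sln and Bmp10 were too low to test, and Myl7, the atrial light chain, passed 20 CPM in 10 vehicle libraries (7 F, 3 M). The numbers in the titles fall in separate ranges for vehicle F and vehicle M libraries, so a batch that followed them cannot be told apart from sex.

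Vehicle F libraries scattered less than vehicle M libraries. The deviation of a library from the mean of its pair, as a median over genes of at least 5 CPM, was 0.0367 to 0.135 log2 in vehicle F (median of the 12 times 0.0507) and 0.0496 to 0.233 log2 in vehicle M (median 0.0880). The vehicle M pair was the wider one at 9 of the 12 times. The common dispersion of the counts was 0.0103 in vehicle F and 0.0353 in vehicle M, where tamoxifen F and tamoxifen M libraries had 0.0123 and 0.0156. The share of counts in TEC genes (an annotation class of transcripts that await experimental proof) lay between 0.0847 and 0.109% in vehicle F libraries. It was 0.123 to 0.190% in 10 vehicle M libraries, at 8 of the 12 times, and 0.0813 to 0.106% in the other 14. Cytosolic ribosomal protein genes held 1.25 to 2.30% of the counts in vehicle F, 2.03 to 2.46% in the 10 vehicle M libraries and 1.32 to 2.27% in the other 14, and mitochondrially encoded genes had a median share of 7.21% in vehicle F and 8.37% in vehicle M. The 10 libraries are called high in TEC counts here. Results are also given without them and at ct 18, 22, 46 and 50, the 4 times that have none of them. These 4 times leave out ct 26 to 42 and ct 54 to 62, so the lack of such libraries cannot be told apart from time of day there. Most vehicle libraries over 20 CPM of Myl7 also fall at these 4 times.

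**Figure D1:**
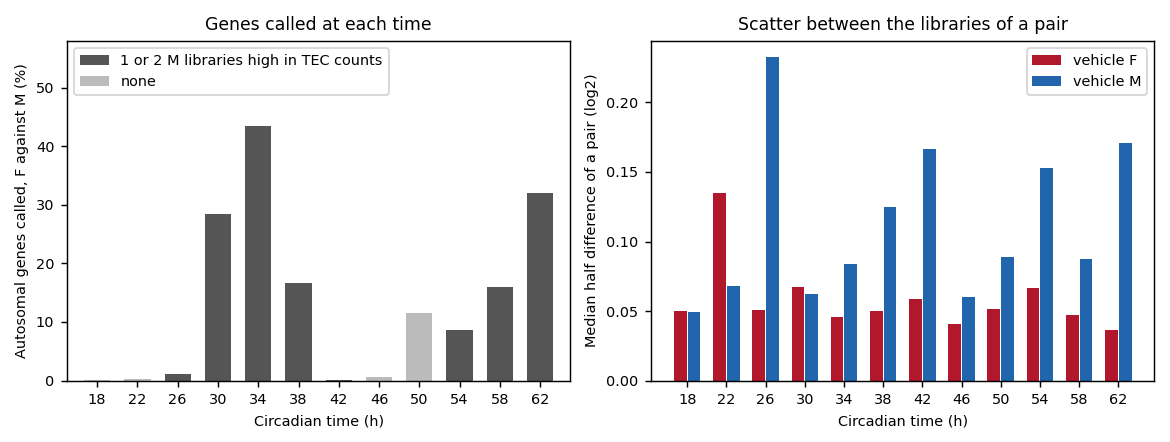
Left, percent of the 14434 tested autosomal genes called in F against M at each circadian time (h), dark where at least 1 vehicle M library was high in TEC counts; right, median deviation of a library from its pair mean (log2) for vehicle F and vehicle M at each time. Calls ran from 0.0346% at ct 18 to 43.4% at ct 34, and the vehicle M bar was the higher one at 9 of 12 times.

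With time as a block, most tested autosomal genes differed in their mean over the day, by small amounts. Of 14434 autosomal genes, 9364 (64.9%) passed an adjusted p of 0.05 in edgeR's quasi-likelihood test with Benjamini-Hochberg adjustment, 4358 of them higher in F (30.2%) and 5006 lower in F (34.7%). The median size of these differences was 0.32 log2, and 163 genes reached a log2 difference of 1 in either direction. Without the 10 libraries high in TEC counts, 6040 genes (41.8%) were called, 3091 higher (21.4%) and 2949 lower (20.4%). At ct 18, 22, 46 and 50 alone, where 8 vehicle F libraries met 8 vehicle M libraries, 1477 genes (10.2%) were called, 701 higher (4.86%) and 776 lower (5.38%). Fewer libraries enter that fit, which by itself lowers the number of calls. The genes called higher in F had a median transcript length of 4170 bases and those called lower in F 2404 bases, beside 3198 for all autosomal genes tested. The gap was wider at the 4 times (4869 against 2027 bases) and without the 10 libraries (4817 against 1905 bases). In tamoxifen libraries the gap was smaller (3944 against 2834 bases). The part of transcript length in the result was not tested beyond a fit with offsets for length and GC content, which called 4484 genes higher and 4494 lower.

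Tested time by time, the number of calls ranged widely. At ct 18 the test called 5 genes (0.0346%), at ct 22 it called 46 (0.319%), at ct 42 it called 14 (0.0970%) and at ct 46 it called 95 (0.658%). At ct 26 it called 150 genes (1.04%), at ct 54 it called 1253 (8.68%), at ct 50 it called 1668 (11.6%) and at ct 58 it called 2304 (16%). The highest counts were 2412 at ct 38 (16.7%), 4110 at ct 30 (28.5%), 4624 at ct 62 (32%) and 6269 at ct 34 (43.4%). Those last 4 times each hold a vehicle M library high in TEC counts, as do ct 26, 42, 54 and 58. Of the genes called over the whole day, 60.1% pointed the fitted way at ct 42 and 65% at ct 18, against 98.0% at ct 62. At ct 42 the vehicle F pair had its highest ribosomal protein shares, 2.0 and 2.30%.

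Few of the 9364 differences held at every time. In 1377 genes (9.54% of those tested) the pair means lay on the fitted side at all 12 times, in 847 of them with F higher and in 530 with F lower. A stricter reading, in which both F libraries lay beyond both M libraries at each of the 12 times, was met by 63 called genes (0.436%), 28 higher and 35 lower in F. Because it uses single libraries, the wide scatter of the vehicle M pairs counts against a gene in it. Of all 9364 called genes, 1259 were called in the same direction at the 4 times. The strictest reading, an adjusted p under 0.05 at each time on its own, left 2 genes (0.0139%), C7 and Hsd11b1, both lower in F.

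**Figure D2:**
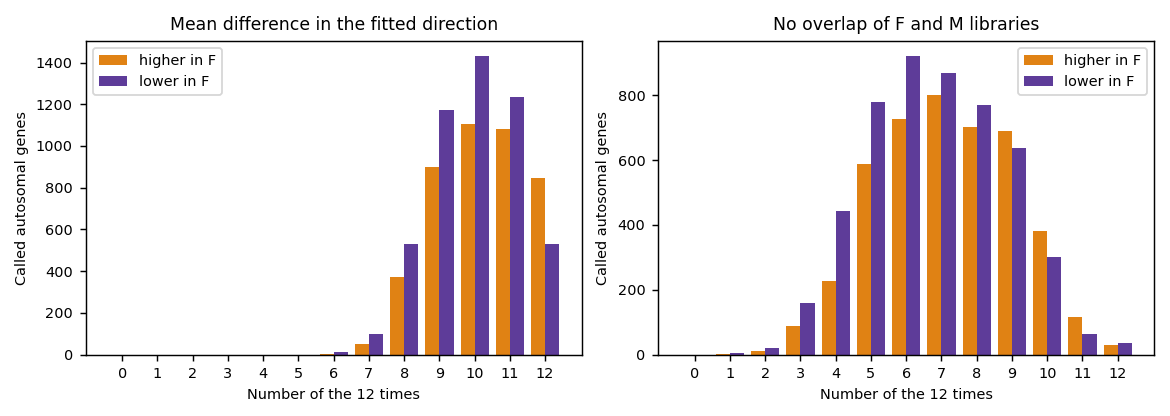
Called autosomal genes by the number of the 12 circadian times at which the F minus M difference of pair means had the fitted direction (left) and at which both F libraries lay beyond both M libraries (right), for genes higher and lower in F. The 12-time bars stand at 847 and 530 genes on the left and at 28 and 35 on the right.

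C7, the component of the terminal complement pathway that anchors the forming membrane attack complex, was lower in F at every time. C7 (ENSMUSG00000079105.4, chromosome 15, 4988762 to 5063740, minus strand, GENCODE M21 on GRCm38) had 1.93 CPM in the lowest, 4.14 in the median and 6.86 in the highest vehicle F library, against 12, 24.4 and 61.9 CPM in vehicle M libraries. The highest F library thus lay under the lowest M library. The difference was -2.59 ± 0.13 log2 (SE, adjusted p = 1.025e-18, edgeR), and at single times it ran from -3.86 at ct 22 to -1.63 at ct 54. The vehicle F pairs stayed under 7 CPM throughout, while the vehicle M pair at ct 22 (61.9 and 44.3 CPM) stood far above that at ct 30 (12 and 23.3 CPM). At the 4 times it was -2.65, and in tamoxifen libraries -2.57 ± 0.13. The RefSeq promoter window of C7 (GRCm38.p6, chr15:5063724-5064023, minus strand, from 250 bases before to 50 bases after the start) is shown because this gene leads the list. It held none of the 3 motifs searched, so no letter is in capitals.
C7: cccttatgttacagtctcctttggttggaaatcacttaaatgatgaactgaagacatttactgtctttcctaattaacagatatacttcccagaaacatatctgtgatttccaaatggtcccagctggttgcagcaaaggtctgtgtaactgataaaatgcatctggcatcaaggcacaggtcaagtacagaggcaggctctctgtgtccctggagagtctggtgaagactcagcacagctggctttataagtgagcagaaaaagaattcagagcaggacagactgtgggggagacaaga

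Hsd11b1 encodes the enzyme that regenerates active glucocorticoid inside cells, and it was the other gene called at all 12 times. Hsd11b1 (ENSMUSG00000016194.14, chromosome 1, 193221634 to 193264075, minus strand) had 6.92 CPM in the lowest, 9.89 in the median and 18.5 in the highest vehicle F library, against 20.1, 28.7 and 39.2 CPM in vehicle M libraries. Again no library of one sex reached into the range of the other. The difference was -1.41 ± 0.06 log2 (adjusted p = 8.52e-21, edgeR), from -1.80 at ct 50 to -0.99 at ct 18. Both sexes had their highest pair at ct 42, with 15.2 and 18.5 CPM in vehicle F and 37.0 and 39.2 CPM in vehicle M. Of the 17 genes of sex steroid receptors and steroid metabolism tested, 7 were called higher and 3 lower in F. Over all autosomal genes the shares were 30.2% and 34.7%. Hsd11b1 was among those 3 and was the only member with the same direction at all 12 times.

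**Figure D3:**
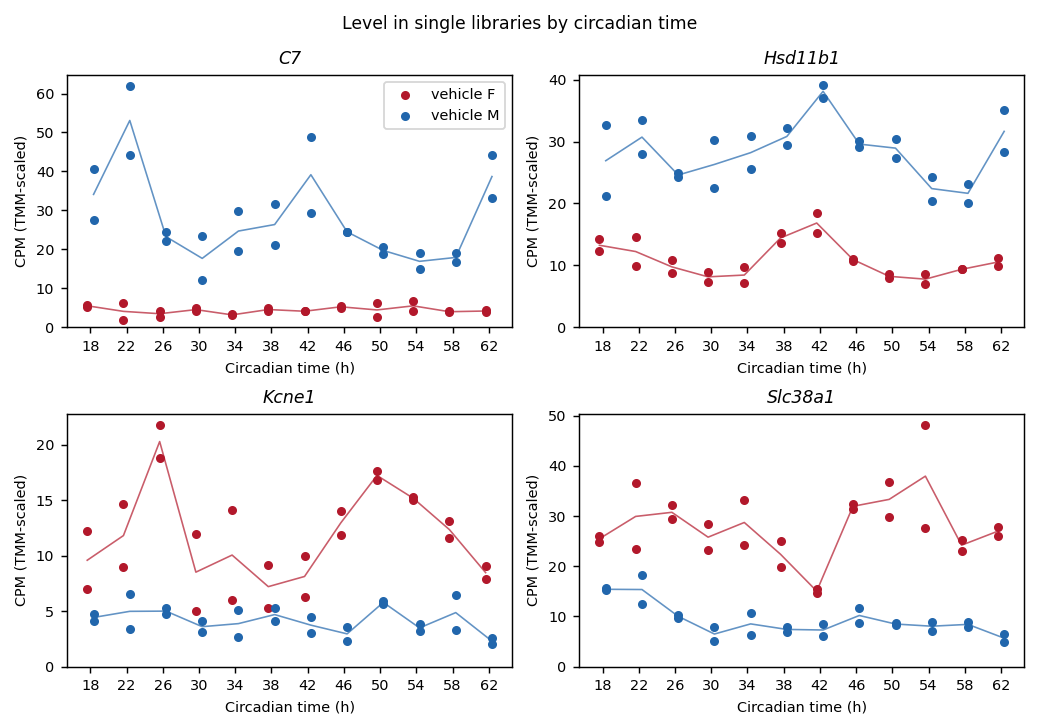
Level in each library (CPM, TMM-scaled) against circadian time (h) for C7, Hsd11b1, Kcne1 and Slc38a1, with lines through the pair means, vehicle F in red and vehicle M in blue. C7 and Hsd11b1 lie lower in F at all 12 times, Slc38a1 and Kcne1 higher, with no overlap of the pairs.

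Further genes lower in F without overlap at any time included secreted proteins and enzymes. Lvrn, a membrane aminopeptidase, had 0.643, 1.82 and 3.80 CPM (lowest, median and highest) in vehicle F and 4.42, 9.17 and 14.7 CPM in vehicle M libraries, a difference of -2.22 ± 0.14 log2 (adjusted p = 2.21e-15, edgeR). The F and M ranges did not meet. Serpina3n, a secreted inhibitor of serine proteases, had 1.46, 4.01 and 9.76 CPM in vehicle F and 7.45, 14.1 and 44.7 CPM in vehicle M (-1.79 ± 0.16 log2, adjusted p = 1.08e-11). It belongs to a cluster of near-identical genes, so the split of its reads is uncertain. Ccn5, a matricellular protein that restrains smooth muscle growth and fibrosis in mice, had 1.56, 3.64 and 6.75 CPM in vehicle F and 6.75, 11.7 and 23.5 CPM in vehicle M (-1.76 ± 0.13 log2, adjusted p = 5.71e-14). Penk, the precursor of enkephalin opioid peptides, was lower by -1.62 ± 0.11 log2 (adjusted p = 2.91e-14). Its exons overlap A830012C17Rik, and the strand used in counting is not given, so reads of the 2 genes cannot be told apart. Ano5, a phospholipid scramblase of muscle, differed by -1.60 ± 0.13 log2 (adjusted p = 8.64e-13).

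Acsm5, a mitochondrial acyl-CoA synthetase of medium-chain acids, also had no overlap at any time. It had 3.25, 4.27 and 6.58 CPM in vehicle F and 4.87, 10.3 and 16.6 CPM in vehicle M libraries (-1.20 ± 0.10 log2, adjusted p = 1.21e-11, edgeR), so the pooled ranges met although the pairs never did. Its exons overlap those of Pdilt, which leaves its reads uncertain in part. The promoter window at its RefSeq start (GRCm38.p6, chr7:119526015-119526314, plus strand) is shown because it is one of the few with a CACGTG box, the element bound by the clock's activators, in capitals here.
Acsm5: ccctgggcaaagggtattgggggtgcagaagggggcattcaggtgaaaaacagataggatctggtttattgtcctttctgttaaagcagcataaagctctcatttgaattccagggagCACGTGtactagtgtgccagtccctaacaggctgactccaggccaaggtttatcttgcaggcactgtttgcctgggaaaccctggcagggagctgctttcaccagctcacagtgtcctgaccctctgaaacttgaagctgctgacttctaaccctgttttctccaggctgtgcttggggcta

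Several genes were lower in F at each time in pair means but with some overlap of single libraries. Inmt, which methylates tryptamine and other amines, had 4.02, 8.94 and 25 CPM in vehicle F and 9.96, 22.6 and 48.5 CPM in vehicle M (-1.44 ± 0.15 log2, adjusted p = 4.94e-10, edgeR). Cpxm2, a secreted carboxypeptidase-like protein, had 19.8, 34 and 55.2 CPM in vehicle F and 46.9, 87.6 and 127 CPM in vehicle M (-1.30 ± 0.11 log2, adjusted p = 6.38e-12). Inmt overlapped at 2 times and Cpxm2 at 1. Kazald1, a secreted protein related to the binders of insulin-like growth factors, differed by -1.25 ± 0.12 log2, and Ifi205, of an interferon-inducible family with close paralogs, by -1.14 ± 0.13 log2.

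On the other side, Slc38a1 had the highest difference among protein-coding genes of at least 5 CPM with F higher at all 12 times. Slc38a1 (ENSMUSG00000023169.15, chromosome 15, 96571418 to 96642913, minus strand), a transporter that brings glutamine and other neutral amino acids into cells, had 14.6, 26.9 and 48.2 CPM in vehicle F and 4.87, 8.53 and 18.2 CPM in vehicle M libraries. The pooled ranges met only through vehicle F libraries of ct 42 and vehicle M libraries of ct 18 and 22, and the pairs did not overlap at any time. The difference was 1.60 ± 0.10 log2 (adjusted p = 4.72e-16, edgeR). It was called at 9 of the 12 times, ranging from 0.72 at ct 18 to 2.24 at ct 54. Its size was also called as changing over time (adjusted p = 0.0382, edgeR).

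Kcne1, the accessory subunit that slows the Kcnq1 potassium channel and so shapes the slow delayed rectifier current, was also higher in F at each time. Kcne1 (ENSMUSG00000039639.7, chromosome 16, 92345982 to 92359468, minus strand) had 5.04, 11.9 and 21.8 CPM in vehicle F and 2.02, 4.11 and 6.59 CPM in vehicle M libraries (1.49 ± 0.12 log2, adjusted p = 4.91e-12, edgeR). Vehicle F pairs reached their highest levels at ct 26 and ct 50, and vehicle M pairs stayed under 7 CPM. The sexes came closest at ct 38, with 5.25 and 9.16 CPM in vehicle F and 5.24 and 4.13 CPM in vehicle M. Slc16a7, a carrier of lactate, pyruvate and ketone bodies, had 17.9, 27.0 and 33.4 CPM in vehicle F and 6.37, 13.6 and 19.5 CPM in vehicle M (0.99 ± 0.08 log2, adjusted p = 6.39e-12). Ifit1bl2 (0.81 ± 0.10 log2), a relative of the interferon-induced Ifit genes, Ppm1e (0.75 ± 0.07), a protein phosphatase, and Alg10b (0.68 ± 0.09), a glucosyltransferase of N-glycan synthesis, completed the 6 largest increases without overlap at any time among protein-coding genes of at least 5 CPM.

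Larger mean differences with some overlap came from Col14a1, Ddc and others. Col14a1, a collagen that sits on the surface of fibrils, had 14.2, 28.8 and 57.1 CPM in vehicle F and 6.75, 8.91 and 22.3 CPM in vehicle M (1.51 ± 0.12 log2, adjusted p = 1.74e-12, edgeR), with overlap at 1 time. Ddc, the decarboxylase that makes dopamine and serotonin, had 4.25, 7.41 and 10.3 CPM in vehicle F and 1.23, 2.86 and 5.35 CPM in vehicle M (1.24 ± 0.13 log2, adjusted p = 6.14e-10). Irs2, a docking protein of the insulin receptor, had 8.17, 18.8 and 62.8 CPM in vehicle F and 4.87, 9.56 and 17.5 CPM in vehicle M (1.01 ± 0.13 log2, adjusted p = 3.62e-08). The matrix protein Frem2 (1.04 ± 0.11 log2), the secreted Fgl2 (0.95 ± 0.09), the sorting receptor Sorcs2 (0.95 ± 0.13), the kinase Alpk2 (0.88 ± 0.15) and the Rab regulator Tbc1d16 (0.87 ± 0.14) were also higher in F.

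The size of some of these increases rested on the times that hold libraries high in TEC counts. Kcnj12, an inward rectifier channel, had 12.5, 28.9 and 39.8 CPM in vehicle F and 4.11, 12.6 and 27.1 CPM in vehicle M over all times (1.09 ± 0.17 log2, adjusted p = 1.595e-06, edgeR). At ct 18, 22, 46 and 50 it differed by 0.36 (adjusted p = 0.0685), and without the 10 libraries by 0.54. Sorcs2 differed by 0.37 at the 4 times (adjusted p = 0.0827) and Tbc1d16 by 0.31. By contrast Kcne1 differed by 1.5, Col14a1 by 1.36, Slc38a1 by 1.31 and Irs2 by 0.96 there, and each passed the test.

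**Figure D4:**
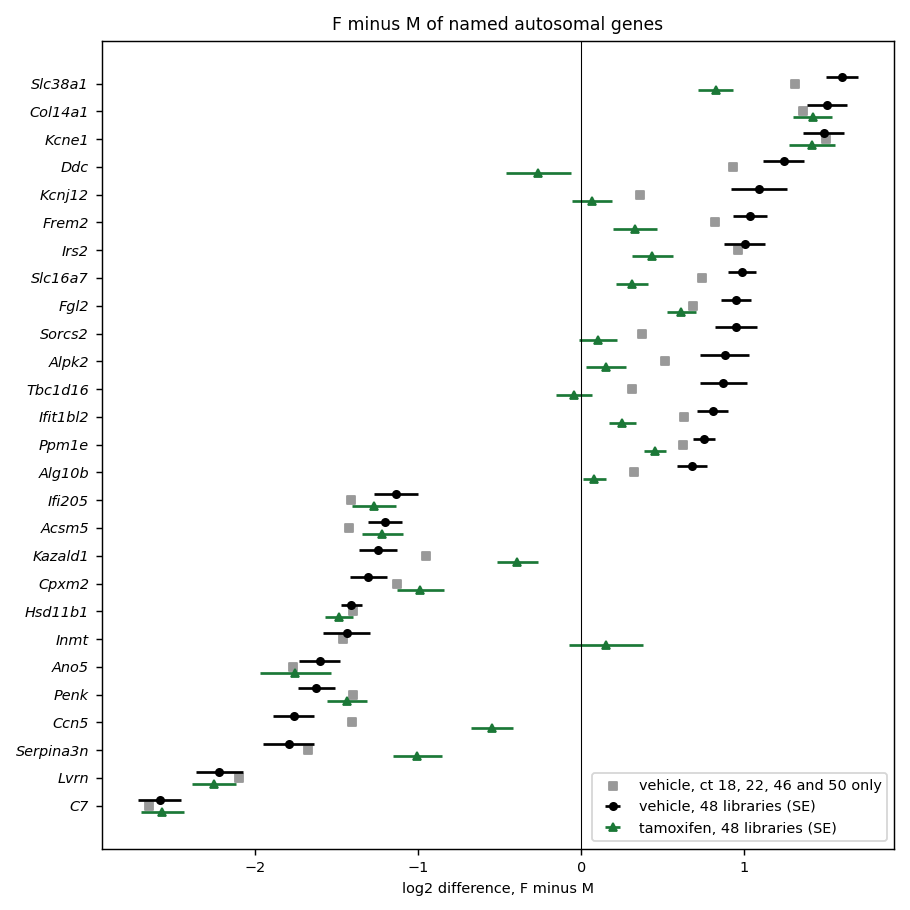
F minus M difference (log2) of named genes over 48 vehicle libraries (black, with SE), at ct 18, 22, 46 and 50 alone (grey squares) and over 48 tamoxifen libraries (green, with SE). C7, Lvrn, Hsd11b1, Ano5, Acsm5, Kcne1 and Col14a1 have nearly the same value in all 3, while Inmt, Ddc and Kcnj12 lie between -0.26 and 0.15 in tamoxifen libraries.

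In 9 autosomal genes (0.0624%) all 24 F libraries lay on one side of all 24 M libraries. They were C7, Hsd11b1 and Lvrn, described above, together with Ccl11, Cds1, Cnmd, 6030408B16Rik, 9330159F19Rik and 2010001K21Rik, which were named after their values were seen. Ccl11, the eosinophil attractant eotaxin, had 0.920, 1.49 and 3.32 CPM in vehicle F and 3.64, 6.59 and 12.7 CPM in vehicle M (-2.06 ± 0.12 log2, adjusted p = 3.51e-17, edgeR). Cds1, which makes the CDP-diacylglycerol precursor of phosphoinositides and cardiolipin, had 4.23, 6.19 and 7.71 CPM in vehicle F and 9.14, 13.8 and 16.7 CPM in vehicle M (-1.08 ± 0.07 log2, adjusted p = 1.56e-15). Cnmd, the anti-angiogenic glycoprotein chondromodulin, differed by -2.14 ± 0.17 log2 from levels of at most 1.22 CPM in vehicle F and 5.21 CPM in vehicle M. 2010001K21Rik was the only one of the 9 that was higher in F, with 6.26 to 13.3 CPM in vehicle F and 1.42 to 5.80 CPM in vehicle M. Its exons overlap Gm5790, so its reads are uncertain.

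The rest of the 63 genes without overlap at any time differed less. The median size over the 63 was 0.78 log2, and 24 of them reached a log2 difference of 1. Among those named after their values were seen, the chemokine Cxcl14 averaged 16.8 ± 3.92 CPM in vehicle F and 30.9 ± 5.76 CPM in vehicle M (SD, n = 24 each; -0.88 ± 0.09 log2). The galectin Lgals1 averaged 102 ± 19.8 CPM in vehicle F and 184 ± 43.3 CPM in vehicle M (-0.84 ± 0.07 log2). Cyp27a1, the sterol hydroxylase of mitochondria, differed by -0.87 ± 0.08 log2. Higher in F were the cohesin subunits Rad21 (0.36 ± 0.04 log2) and Smc3 (0.44 ± 0.04 log2) and the endoplasmic reticulum chaperone Hsp90b1, which averaged 514.2 ± 97.7 CPM in vehicle F and 359 ± 78.5 CPM in vehicle M (0.52 ± 0.06 log2). The noncoding Snhg11 averaged 0.340 ± 0.188 CPM in vehicle F and 5.0 ± 6.49 CPM in vehicle M, where the SD exceeded the mean. Of the 63 genes, 60 were protein coding, and they lay on all 19 autosomes, from 1 to 8 genes on each.

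For some genes the difference itself changed over the day. A test of the 11 sex-by-time terms called 1308 autosomal genes (9.06%), of which 4 were among the 63. Nfil3, a clock-controlled repressor, was higher in F at ct 18 (41.6 and 29.98 CPM in vehicle F, 13.2 and 21.6 CPM in vehicle M) and lower in F at ct 54 (9.85 and 6.86 CPM in vehicle F, 18.1 and 16.2 CPM in vehicle M). Its differences ran from -1.05 to 1.06 log2 (adjusted p = 0.0016 for the change over time, edgeR). Kcnh2, the channel of the rapid delayed rectifier current, had 129 and 110 CPM in vehicle F and 57.2 and 49.9 CPM in vehicle M at ct 30. At ct 18 it had 68.0 and 73.3 CPM in vehicle F and 103 and 83.5 CPM in vehicle M, a difference of -0.39 against 1.15 at ct 30 (adjusted p = 0.00404 over time). The sodium channel Scn4a ranged from -1.02 at ct 42 to 1.15 at ct 34 (adjusted p = 0.00209). Both vehicle M libraries of ct 30 and of ct 34 were high in TEC counts, as was 1 at ct 42 and 1 at ct 54. Without the 10 such libraries the mean difference of Kcnh2 was 0.18 (adjusted p = 0.106, edgeR), against 0.40 with them. At the 4 times that have none of them it was 0.02. For Scn4a the values were -0.11 without them, 0.22 with them and -0.34 at the 4 times, and none of these mean differences was called. Change over time was not tested without these libraries. Bcl9l, a coactivator of beta-catenin, ranged from -0.07 at ct 42 to 1.11 at ct 50, the stress regulator Atf4 from -0.55 to 0.28 and the small heat shock protein Hspb1 from -0.93 to 0.79 (adjusted p = 0.00404 each).

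Among gene groups, cardiac potassium channels stood higher in F over the whole day, but few of them at the 4 times without libraries high in TEC counts. Of 24 tested members, 19 were called higher in F and 3 lower, beside 30.2% and 34.7% of all autosomal genes, and the median difference was 0.54 log2 against -0.03 for all autosomal genes. Kcna4, of the slow transient outward current, differed by 1.0 ± 0.14 log2, and Kcnd2, of the fast one, by 0.78 ± 0.14. The members with F higher at all 12 times were Kcna4, Kcnd2, Kcne1, Kcnip2 and Kcnj12. At the 4 times 1 member was called higher, Kcne1, and 1 lower, Kcnj8, beside 4.86% and 5.38% of all autosomal genes. Both counts are near those shares. In tamoxifen libraries 1 was higher and 0 lower, beside 3.68% and 3.32%. Without the 10 libraries the counts were 13 higher and 2 lower, beside 21.4% and 20.4%.

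Calcium cycling and cell junction genes were also mostly higher in F over the day. Of 18 calcium cycling genes 12 were higher and 5 lower in F, with Atp2a2, the calcium pump of the sarcoplasmic reticulum, at 0.62 ± 0.12 log2 and Ryr2, its release channel, at 0.63 ± 0.10. At the 4 times 1 was higher and 1 lower, and Atp2a2 differed by 0.10 there. Of 16 adrenergic and natriuretic genes 8 were higher and 5 lower, and at the 4 times 5 were higher and 0 lower, beside 4.86% and 5.38% of all autosomal genes. Adcy5, the main adenylyl cyclase of cardiomyocytes, had 69.4, 129 and 143 CPM in vehicle F and 32.7, 68.9 and 109 CPM in vehicle M (0.82 ± 0.11 log2), and it was still higher at the 4 times (0.41, adjusted p = 0.00828, edgeR). Adrb1, Adcy5 and Pde3a, the phosphodiesterase that degrades cyclic AMP, had F higher at all 12 times. Of 11 intercalated disc genes 9 were higher and 0 lower, against 5 and 0 without the 10 libraries and 1 and 0 at the 4 times. Ctnna3 led (0.81 ± 0.10 log2, 0.48 at the 4 times). Dsp differed by 0.64 over the day and 0.05 at the 4 times, and Cdh2 by 0.53 and 0.14. Of 28 sarcomere and Z-disc genes 13 were higher and 10 lower, against 4 and 11 without the 10 libraries. In that fit 21.4% of all autosomal genes were higher and 20.4% lower. Of 15 sodium and calcium channel subunits 4 were higher and 2 lower, no larger shares than the 30.2% and 34.7% over all autosomal genes. Cacna1g, a T-type calcium channel, differed by 0.65 ± 0.10 log2 over the day and by 0.60 at the 4 times (adjusted p = 0.0680, edgeR).

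Insulin and glucose genes were mostly higher in F over the day. Of 30 tested, 18 were called higher and 5 lower, beside 30.2% and 34.7% of all autosomal genes. Slc2a1, Hk2, Insr, Irs2 and Akt2 had F higher at all 12 times. At the 4 times 4 were higher and 6 lower, beside 4.86% and 5.38% of all autosomal genes. Without the 10 libraries the counts were 9 and 9, beside 21.4% and 20.4%. Irs1 (0.56 ± 0.07 log2, 0.55 at the 4 times) and Irs2 were higher in both fits, and Pgam2, the muscle phosphoglycerate mutase, was lower in both (-0.60 ± 0.06 log2, -0.45 at the 4 times). Of 50 genes of fatty acid oxidation and lipid handling 12 were higher and 11 lower over the day, smaller shares than over all autosomal genes. The counts were 4 and 27 without the 10 libraries and 0 and 10 at the 4 times. Ppara, the receptor that drives fatty acid oxidation genes, had 13.05, 49.5 and 81.4 CPM in vehicle F and 10.8, 17.2 and 46.1 CPM in vehicle M (1.20 ± 0.17 log2), but at the 4 times 0.66 (adjusted p = 0.0550, edgeR). Of 16 genes of branched-chain amino acid breakdown 6 were higher and 2 lower, against 5 and 9 without the 10 libraries.

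Enzymes that oxidise and conjugate drugs, sterols and aldehydes were mostly lower in F. Of 29 tested, 21 were called lower and 3 higher (median -0.31 log2), beside 34.7% and 30.2% of all autosomal genes. At the 4 times 9 were lower and 0 higher, beside 5.38% and 4.86%. In tamoxifen libraries 9 were lower and 1 higher, beside 3.32% and 3.68%. Cyp2j6, Cyp27a1, Sult1a1, Sult5a1, Aldh1a1 and Inmt had F lower at all 12 times. Cyp27a1 had 20.6, 24.2 and 33.3 CPM in vehicle F and 28.6, 43.1 and 87.1 CPM in vehicle M, and it was lower at the 4 times (-0.50, adjusted p = 0.000467, edgeR) and in tamoxifen libraries (-0.26). Aldh1a1, which makes retinoic acid from retinal, differed by -0.69 ± 0.08 log2, by -0.68 at the 4 times and by -0.54 in tamoxifen libraries. Sult1a1, a phenol sulfotransferase, differed by -0.63 ± 0.08, by -0.56 and by -0.33 in the same order.

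Genes of ribosomes and of the respiratory chain were lower in F in a bloc. Of 32 cytosolic ribosomal protein genes 31 were called lower and 0 higher (median -0.47 log2), beside 34.7% and 30.2% of all autosomal genes. None had F lower at all 12 times, and 1 was called lower at the 4 times, beside 5.38% of all autosomal genes. Of 29 nuclear genes of the respiratory chain 22 were lower and 2 higher (median -0.26 log2), with 13 lower at the 4 times. In tamoxifen libraries 0 were called either way, beside 3.68% higher and 3.32% lower over all autosomal genes. Uqcrq, a subunit of the cytochrome bc complex, had 237, 285 and 549.5 CPM in vehicle F and 292, 508 and 682 CPM in vehicle M (-0.63 ± 0.08 log2), and -0.38 at the 4 times (adjusted p = 0.0394, edgeR). Of 18 mitochondrial ribosomal protein genes 13 were lower and 0 higher, and Mrpl20, Mrpl28 and Mrps34 had F lower at all 12 times. Without the 10 libraries high in TEC counts 31 cytosolic ribosomal protein genes were lower (median -0.28 log2), as were 27 respiratory chain genes and 16 mitochondrial ribosomal protein genes. In that fit 20.4% of all autosomal genes were lower. The part of the ribosomal protein share of the libraries in these counts was not tested.

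**Figure D5:**
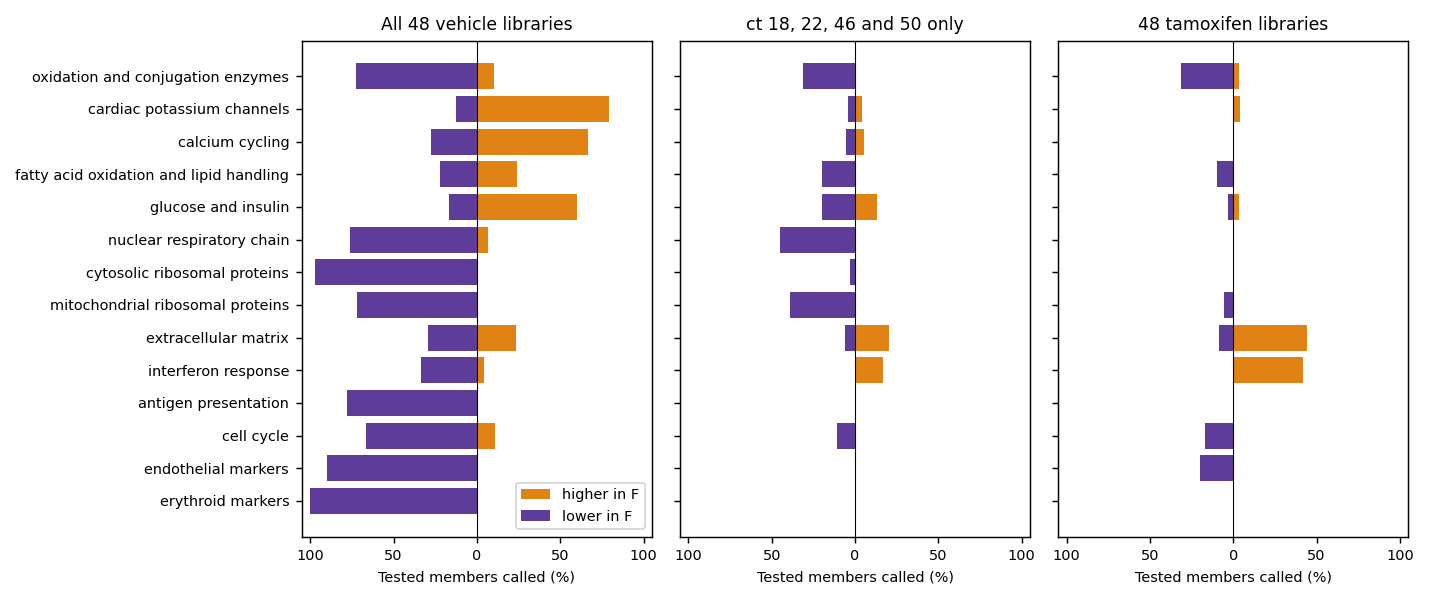
Percent of the tested members of 14 gene groups called higher in F (right of 0) and lower in F (left of 0), in all 48 vehicle libraries, at ct 18, 22, 46 and 50 alone, and in 48 tamoxifen libraries. Of 29 oxidation and conjugation enzymes 21 are lower in F in the first panel and 9 in each of the others; of 24 potassium channels 19 are higher in the first panel and 1 in each of the others.

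Matrix genes were called no more often than other genes over the whole day. Of 34 extracellular matrix genes 8 were higher and 10 lower in F, beside 30.2% and 34.7% of all autosomal genes. At the 4 times 7 were higher and 2 lower, beside 4.86% and 5.38%. In tamoxifen libraries 15 were higher and 3 lower, beside 3.68% and 3.32%. Col14a1 had F higher, and Sparc, Thbs4, Ccn5, Timp4 and Lox, the enzyme that cross-links collagen, had F lower at all 12 times. Thbs4 differed by -0.35 ± 0.10 log2 in vehicle libraries and by 0.84 ± 0.15 in tamoxifen libraries. The collagen VI chains Col6a1, Col6a2 and Col6a3 were higher in F over the day (0.17 ± 0.07, 0.27 ± 0.09 and 0.34 ± 0.09 log2) and at the 4 times (0.29, 0.37 and 0.55).

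Immune genes depended on which libraries were used. Of 24 interferon response genes 1 was called higher and 8 lower in F over all 48 libraries (median -0.09 log2). Over all autosomal genes the shares were 30.2% and 34.7%. Without the 10 libraries high in TEC counts 11 were higher and 1 lower (median 0.19), beside 21.4% and 20.4%. At the 4 times 4 were higher and 0 lower (median 0.28), beside 4.86% and 5.38%. In tamoxifen libraries 10 were higher and 0 lower (median 0.25), beside 3.68% and 3.32%. Ifi44 was higher in F over the day (0.24 ± 0.09 log2) and at the 4 times (0.71), and Ifi27 was lower over the day (-0.57 ± 0.10) and differed by -0.07 at the 4 times. Of 18 antigen presentation genes 14 were lower and 0 higher over the day, and 0 were called at the 4 times or in tamoxifen libraries. Of 13 complement genes 2 were higher and 8 lower, C7 being the only one lower at all 12 times and the only one called at the 4 times.

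Clock genes were called in both directions in their daily mean. Of 7 genes of the activating arm 3 were higher and 1 lower in F. A list of repressors, in which Hlf was also placed though not a repressor, held 14 genes, with 4 higher and 1 lower. Over all autosomal genes the shares were 30.2% and 34.7%. In either list 0 genes had the same direction at all 12 times. Clock, the partner of Bmal1, differed by 0.19 ± 0.05 log2 and by 0.34 at the 4 times, and its relative Npas2 by 0.30 ± 0.11 and 0.52. Arntl2 differed by -0.32 ± 0.07 over the day, and the repressor Ciart by -0.32 ± 0.11. The repressor Bhlhe40 differed by 0.45 ± 0.09 and Hlf by 0.36 ± 0.09 over the day, and Hlf by -0.17 at the 4 times (adjusted p = 0.165, edgeR). Of 8 circadian outputs 3 were higher and 1 lower, and of 13 glucocorticoid targets 3 were higher and 2 lower.

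Markers of some other heart cell types were also called, to be read beside 30.2% higher and 34.7% lower over all autosomal genes. Without the 10 libraries those shares were 21.4% and 20.4%, at the 4 times 4.86% and 5.38%, and in tamoxifen libraries 3.68% and 3.32%. Of 10 endothelial markers 9 were called lower and 0 higher in F, and their summed level was 1186 to 1771 CPM (median 1346) in vehicle F and 1237 to 2632 CPM (median 1602) in vehicle M. Without the 10 libraries 4 were lower, and at the 4 times 0 were called. Of 8 fibroblast markers 2 were higher and 1 lower, smaller shares than over all autosomal genes, with a summed median of 2322 CPM in both sexes. Without the 10 libraries 4 were higher, at the 4 times 2 and in tamoxifen libraries 6. All 6 autosomal erythroid markers tested were lower in F (summed median of the list 556.1 CPM in vehicle F, 977 CPM in vehicle M; 5 without the 10 libraries, 0 at the 4 times), as were 3 of 4 neutrophil markers (summed level 2.44 to 9.63 CPM in vehicle F and 2.95 to 67.5 CPM in vehicle M). The same number of neutrophil markers, 3, was lower without the 10 libraries (median -0.93 log2, against -0.99 with them), and 0 at the 4 times. Of 7 mesothelial and epicardial markers 5 were higher in F, with a summed median of 36.4 CPM in vehicle F and 20.8 CPM in vehicle M. Without the 10 libraries 5 were higher (median 0.87 log2, against 0.81 with them), and at the 4 times 0. In bulk tissue fewer cells of a type and less RNA per cell cannot be told apart, and the part of these markers in the results was not tested.

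The same contrast in tamoxifen libraries called 1010 autosomal genes (7.0%), with 3.68% of those tested higher and 3.32% lower in F. One tamoxifen F library, at ct 54, went against its label, with 0.272 CPM of Xist, 11.3 CPM of Ddx3y and 724 CPM of Myl7, and without it 468 genes were higher. Of the 9364 genes called in vehicle libraries 603 (6.44%) were called in the same direction in tamoxifen libraries (560 without that library). The shares were 230 of the 1377 with the same direction at all 12 times (16.7%; 219 without it) and 43 of the 63 without overlap (68.3%; 40 without it). All 63 had the same sign in tamoxifen libraries, as did 1135 of the 1377 and 5597 of the 9364. The difference between the 2 contrasts was itself called in 7523 autosomal genes (52.1%; 7595 without that library), and in 3069 without the 10 vehicle M libraries high in TEC counts. C7, Hsd11b1, Lvrn, Penk, Ano5, Acsm5, Kcne1 and Col14a1 were called in both contrasts, and for none of these 8 did the test call a difference between them. For Kcne1 the difference of the contrasts was 0.08 ± 0.20 log2 and for Hsd11b1 0.08 ± 0.12.

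Promoters of the 63 genes were searched in RefSeq windows of 300 bases (GRCm38.p6). Of the 63, 42 had 51 windows. The palindromic oestrogen response element (GGTCA, any 3 bases, TGACC) was in 0 of these 51, beside 0.0700% of all 32851 windows, and the androgen and glucocorticoid element (AGAACA, any 3 bases, TGTTCT) in 0, beside 0.00913%. The clock's CACGTG box was in 4 of the 51 (7.84%), beside 9.60% of the windows of tested autosomal genes and 7.15% of all windows. Each motif was read on both strands, and CACGTG is its own reverse complement. The windows are short, so these shares describe the letters near the starts only.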

How the data were processed

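Poly-A RNA of mouse ventricle was sequenced on an Illumina NovaSeq after RNeasy extraction, per the labels. The deposited table holds raw read counts per gene, 1 column per library. HISAT2, Picard, HTSeq, GRCm38 and mm10 are named in the submitters' processing notes, with versions and strand setting not given in the sources used. All columns matched a title. Of 55376 rows, 54486 matched GENCODE M21, and 26 date-like symbols hold 0.1345% of the counts. Totals of the 48 vehicle libraries ran from 8944955 to 20596194. Counts carry no molecular identifiers.

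Genes were filtered with filterByExpr (minimum count 10) and scaled by TMM in edgeR 4.0.16 (R 4.3.3), which left 15033 genes, 14434 of them autosomal and 90 with no chromosome. The quasi-likelihood test had time as a block (13 coefficients, 35 residual degrees of freedom), and p-values were Benjamini-Hochberg adjusted over all 15033 genes, with a threshold of 0.05. A fit of 24 sex-by-time means (24 residual degrees of freedom) gave the tests at each time and of change over time. A fit of all 96 libraries (15629 genes, 70 residual degrees of freedom) gave the tamoxifen contrast and its difference from the vehicle one. Differences are F minus M, and errors are the difference divided by the root of F's test statistic. Levels are CPM on TMM-scaled library sizes. Only the test with time as a block was run on simulated counts, and its outcome is not given here. The tests at each time, of change over time and of the tamoxifen contrast and its difference from the vehicle contrast were not simulated. How shifts shared by a whole library affect the calls was not tested by simulation.

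Named genes are called protein-coding genes of at least 5 CPM with 1 direction at all times, the 12 highest and 12 lowest by log2 difference. To these were added the 6 highest and 6 lowest without overlap, the 6 smallest p-values for change over time, and up to 3 called genes per list. A gene that the rule names is not reported here. Gene lists, members and tests were chosen with earlier results of these data known. Alternatives were RLE and library-size scaling, DESeq2 1.42.0, limma 3.58.1 with sample weights, no filter, offsets for length and GC content, and leaving out libraries or times. The fit at 4 times, the TEC covariate and the fit without a tamoxifen library were added after seeing the data.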

Additional observations from a re-analysis of the deposited data

Results flagged for a closer look

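For 17 of the genes named by rank of their log2 difference, the F minus M difference differed between vehicle and tamoxifen libraries. This is by the test of the difference itself (edgeR, adjusted over all genes tested). The same test called 7523 autosomal genes (52.1%), other named genes among them. Larger in vehicle libraries, with F higher there, were Ddc by 1.51 log2, Kcnj12 by 1.02, Tbc1d16 by 0.92, Sorcs2 by 0.85, Slc38a1 by 0.78, Alpk2 by 0.73, Frem2 by 0.72, Slc16a7 by 0.68, Alg10b by 0.60, Irs2 by 0.58, Ifit1bl2 by 0.56, Fgl2 by 0.34 and Ppm1e by 0.31. With F lower in vehicle libraries, the difference of the contrasts was -1.58 for Inmt, -1.21 for Ccn5, -0.85 for Kazald1 and -0.78 for Serpina3n. Without the vehicle M libraries high in TEC counts, the difference was no longer called for Irs2 (0.47), Fgl2 (0.10), Alpk2 (0.28) and Ppm1e (0.22). It was still called but smaller for Sorcs2 (0.53), Kcnj12 (0.47), Tbc1d16 (0.43), Ifit1bl2 (0.30) and Alg10b (0.28).

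The test of change over the day called 1308 autosomal genes, and the 6 protein-coding genes of at least 5 CPM with the smallest p-values were flagged. The highest F minus M value at a time was 1.06 for Nfil3, 1.15 for Scn4a, 1.15 for Kcnh2, 0.28 for Atf4, 0.79 for Hspb1 and 1.11 for Bcl9l. The values of Scn4a and Kcnh2 fell at ct 34 and ct 30, where both vehicle M libraries were high in TEC counts.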

How the results depend on the processing

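No paired analysis was possible because F and M titles share no replicate numbers. The number of genes lower in F was 2949 without the libraries high in TEC counts, 2984 in the second 24 h alone and 776 at the 4 times, and 701 genes were higher at the 4 times. The same direction at all times held for 856 genes without those libraries. No overlap at any time held for 109 genes without them and for 159 without libraries over 20 CPM of Myl7, with fewer libraries to overlap. Calls at every time were 11 with no filter and 17 at an unadjusted p. Changes over time were called in 4530 genes with no filter and in 4677 with cosine and sine terms. Differences from tamoxifen were called in 3069 without the libraries high in TEC counts. The cause was not tested. Leaving out 1 time gave 3999 to 4467 genes higher and 4452 to 5076 lower. The same direction held for 1375 to 2200 genes over times left out (2200 without ct 42) and 800 to 1625 over libraries (800 without vehicle M replicate 21 of ct 42). No overlap held for 58 to 111 (111 without ct 42, 99 without ct 22) and 63 to 99 (99 without vehicle M replicate 20 of ct 42). Scaling by library size split calls into 4008 higher and 5296 lower, the TEC covariate into 3809 and 3679. Reversed in sign were Scn4a (-0.11 without the libraries high in TEC counts, -0.34 at the 4 times) and Hspb1 (0.063 with length and GC offsets, 0.21 at the 4 times). The mean difference of neither gene was called with all libraries (adjusted p = 0.169 and 0.130, edgeR). At the 4 times Hlf (-0.17), Zbtb16 (-0.047), Mx1 (0.25), Egr1 (0.015), Igha (0.021) and Pf4 (0.10) reversed too.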

Other observations

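Immunoglobulin and lymphocyte genes were mostly lower in F when counted gene by gene. Of 7 immunoglobulin and plasma cell genes tested 5 were called lower and 1 higher, beside 34.7% and 30.2% of all autosomal genes. At the 4 times 3 were lower and 1 higher, beside 5.38% and 4.86%. Ighg2c, a heavy chain constant region of IgG, had 2.82, 5.47 and 8.42 CPM (lowest, median and highest) in vehicle F and 4.55, 11.4 and 22.3 CPM in vehicle M (-1.13 ± 0.15 log2), and it differed by -1.48 both at the 4 times and in tamoxifen libraries. The summed level of the list, set by its most abundant members, had a median of 115 CPM in vehicle F and 108 CPM in vehicle M. Of 6 lymphocyte markers 4 were lower and 1 higher, and of 12 macrophage markers 6 were lower and 3 higher. Cell cycle genes were mostly lower in F over the day (12 lower and 2 higher of 18), and at the 4 times 2 were lower. Of 13 cold-inducible and splicing genes 9 were lower and 0 higher, with Clk1, Clk4 and Hnrnpdl lower at all 12 times. Without the libraries high in TEC counts 4 were lower, at the 4 times 1 and in tamoxifen libraries 0. Of all autosomal genes 20.4%, 5.38% and 3.32% were lower in the same order. Clk1, a kinase of splicing factors, differed by -0.54 ± 0.10 log2 over the day, by -0.14 without those libraries and by -0.12 at the 4 times.

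The other lists are given by their counts, to be read beside 30.2% higher and 34.7% lower over all autosomal genes; several are near or below those shares. Higher and lower counts were 3 and 4 of 13 cardiac stress markers, 4 and 4 of 21 immediate early genes, 5 and 2 of 16 heat shock genes and 4 and 7 of 15 integrated stress response genes. Without the libraries high in TEC counts the immediate early genes had 7 higher and 1 lower and the heat shock genes 3 and 4. In that fit the integrated stress response genes had 0 and 5 and the hypoxia and angiogenesis genes 1 and 1. Its shares over all autosomal genes were 21.4% and 20.4%. With all libraries the counts were 5 and 5 of 15 p53 targets and CDK inhibitors and 6 and 3 of 15 cholesterol synthesis genes. They were 2 and 9 of 22 antioxidant genes and 3 and 2 of 6 metallothionein and zinc transport genes. They were 4 and 7 of 12 creatine and energy buffering genes, 4 and 8 of 14 hypoxia and angiogenesis genes and 2 and 2 of 8 histone genes. Among markers they were 3 and 6 of 10 for cardiomyocytes, 3 and 1 of 7 for atrium and 2 and 4 of 9 for mural cells. They were 0 and 1 of 3 for platelets, 1 and 1 of 2 for adipocytes, 0 and 6 of 8 for Schwann cells and neurons and 0 and 3 of 5 for skeletal muscle. For cardiomyocytes they were 1 and 7 without the libraries high in TEC counts. At the 4 times they were 0 and 3, beside 4.86% and 5.38% of all autosomal genes.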
